A study of Mus musculus with 4 samples.

Results

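Antigen presentation on MHC class I was read through 10 genes in mouse dendritic cells that lack interleukin 10. The genes are the heavy chains H2-K1, H2-D1 and H2-T23, the light chain B2m, the transporter subunits Tap1 and Tap2, the loading factor Tapbp, the chaperones Calr and Pdia3, and the peptide-trimming enzyme Erap1. Every probe set that the array annotation assigned to one of these 10 genes was taken, whatever its signal, out of 12393 genes named on the array. This gave 32 probe sets, of which 27 carried a single gene symbol and 5 carried several. Of the 32, 24 were above the floor on all 4 arrays, 4 on some and 4 on none. The floor is the 40th percentile of all signals pooled, a signal of 33.3, below which values were set to it before log2 was taken.

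The 4 samples were total RNA of CD11c+ dendritic cells from IL10-/- animals after 6 h in culture with SEA/LPS, with LPS, with SEA or in MEDIA alone, with 1 sample and 1 array in each group. LPS is lipopolysaccharide, a bacterial ligand of Toll-like receptor 4, and SEA is the abbreviation of the labels, which do not expand it. All 4 groups share the IL10-/- genotype and the same lot, there was no sample with intact Il10, and the labels give no tissue, dose, age, strain or separate cultures. With 1 array a group no test could be run, so every difference below is between single arrays, without an SD or a p-value, and a gene is called higher or lower by size alone, where the signals differ by 2-fold or more and the brighter of them exceeds the floor.

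MHC class I molecules carry peptides from the cytosol to the cell surface, where CD8+ T cells read them. Proteasomes cut the peptides, the Tap1-Tap2 transporter pumps them into the endoplasmic reticulum, and Erap1 trims them there. Tapbp (tapasin) bridges the transporter to an empty heavy chain bound to B2m, and Calr (calreticulin) and Pdia3 (ERp57) stabilise that complex until a peptide is bound. Dendritic cells raise class I presentation on maturation, and most of these genes are known targets of interferons and NF-kappaB.

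The promoters of the heavy and light chains carry the best known control elements of the family and are shown for that reason, with the promoter of Tap1 beside them. RefSeq promoter windows of assembly GRCm38.p6 matched 9 of the 10 genes, H2-K1 with 2 start sites, and Tap2 is named only. The lines below give the 250 bases before the start site, 5′ to 3′ on the gene's strand, with capitals on matches to a motif of interferon-response type (GAAA, any 2 bases, GAAA) or of NF-kappaB type (GGG, any 4 bases, CCC), searched on both strands. H2-K1 lies on the minus strand at chr17:34000348-34000597, H2-D1 on the plus strand at chr17:35262844-35263093, H2-T23 on the minus strand at chr17:36032702-36032951, B2m on the plus strand at chr2:122147437-122147686 and Tap1 on the plus strand at chr17:34187306-34187555.
H2-K1: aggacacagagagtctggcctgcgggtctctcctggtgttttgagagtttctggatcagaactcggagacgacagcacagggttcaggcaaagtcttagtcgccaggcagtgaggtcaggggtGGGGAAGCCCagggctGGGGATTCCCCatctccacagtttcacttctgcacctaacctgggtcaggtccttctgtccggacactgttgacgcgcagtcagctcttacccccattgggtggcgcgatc
H2-D1: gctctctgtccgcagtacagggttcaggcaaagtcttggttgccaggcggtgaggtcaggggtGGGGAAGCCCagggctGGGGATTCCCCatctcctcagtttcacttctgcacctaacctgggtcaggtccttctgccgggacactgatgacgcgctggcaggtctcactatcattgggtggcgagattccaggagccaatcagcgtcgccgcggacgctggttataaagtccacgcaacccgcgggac
H2-T23: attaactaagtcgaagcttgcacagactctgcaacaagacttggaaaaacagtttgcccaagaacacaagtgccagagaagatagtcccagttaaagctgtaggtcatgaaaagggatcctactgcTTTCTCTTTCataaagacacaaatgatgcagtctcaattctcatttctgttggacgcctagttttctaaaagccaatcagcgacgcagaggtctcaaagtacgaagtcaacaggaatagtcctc
B2m: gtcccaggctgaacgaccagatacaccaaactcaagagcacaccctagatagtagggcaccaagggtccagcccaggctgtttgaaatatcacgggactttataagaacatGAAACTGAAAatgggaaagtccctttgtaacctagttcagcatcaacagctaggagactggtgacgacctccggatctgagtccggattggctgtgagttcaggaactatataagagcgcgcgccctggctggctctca
Tap1: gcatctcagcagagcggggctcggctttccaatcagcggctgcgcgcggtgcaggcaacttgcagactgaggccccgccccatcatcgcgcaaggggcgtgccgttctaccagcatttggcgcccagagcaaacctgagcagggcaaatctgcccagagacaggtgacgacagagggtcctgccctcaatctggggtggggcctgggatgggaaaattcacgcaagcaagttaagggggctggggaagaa

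The H2-K1 and H2-D1 windows aligned over 177 bases without a gap, 161 of them identical (91.0%), and both held the same 3 overlapping or neighbouring matches GGGGAAGCCC, GGGGATTCCC and GGGATTCCCC. The match GGGGATTCCC began 111 bases before the H2-K1 start site shown, 125 bases before the other H2-K1 start site and 171 bases before that of H2-D1. Windows of 300 bases add the 50 bases after the start site. In them the NF-kappaB type motif stood in 4 of the 9 matched genes (H2-K1, H2-D1, Calr and Pdia3), against 11.9% of the 32851 windows. Those windows left out a chromosome that holds no member. The interferon-response type motif stood in 3 of the 9 (H2-T23, B2m and Erap1), against 3.44% of the same windows. In B2m it read GAAACTGAAA and began 139 bases before the start site. CCAAT (NF-Y type) stood in 8 of the 9, against 37.4%, TGACG (CRE type) in 5 of the 9, against 20.8%, and TTCNNNGAA (STAT type) in 0 of the 9, against 8.30%. These are exact matches of letters, and no binding was measured. Forms that depart from a motif, such as tttcacttct in the H2-K1 and H2-D1 windows, were not counted. A missing match therefore does not show that an element is absent.

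The arrays differed in ways that touch the results below. The median signal was 45.1 with SEA/LPS, 51.5 with LPS, 53.2 with SEA and 52.4 in MEDIA, although all arrays had been scaled to the same trimmed mean. The ratio of the 3′ to the 5′ probe set of Gapdh, a sign of RNA quality, was 3.12 with SEA/LPS, 2.42 with LPS, 2.69 with SEA and 2.21 in MEDIA, so it was highest with SEA/LPS, where several members were lowest. The same ratio of Actb was 1.26 with SEA/LPS, 1.24 with LPS, 1.37 with SEA and 1.20 in MEDIA, highest with SEA, and the part of RNA quality in the differences was not tested. The spiked hybridisation controls had geometric means of 683 with SEA/LPS, 806 with LPS, 584 with SEA and 550 in MEDIA over 18 probe sets. Of 12 dendritic cell markers, 11 were above the floor with SEA/LPS and 12 on each other array, and their summed signal was 28988 with SEA/LPS, 38936 with LPS, 31637 with SEA and 31053 in MEDIA. Most of that sum on every array came from the class II presentation genes Cd74, H2-Ab1, H2-Aa and H2-Eb1. In SEA/LPS over LPS, 10 of the 12 dendritic cell markers were below 0 (median -0.20), where 50.6% of all measured genes were. Itgax (0.18) and Zbtb46 (0.34) were above 0. At 2-fold, 2 markers were lower, the class II chain H2-Ab1 (-1.24) and Irf8. Most of these markers were thus lower there, as the members were, and their part in the members' differences was not tested. Itgax (CD11c) itself read 2093 with SEA/LPS, 1851 with LPS, 2181 with SEA and 2732 in MEDIA. The T cell list had 1 to 2 of 7 named markers above the floor, with Cd3e at or under it on all 4 arrays, and its summed signal was 120 with SEA/LPS, 167 with LPS, 123 with SEA and 105 in MEDIA. B cell, NK cell, mast cell, erythroid and fibroblast markers summed to between 123 and 295 on every array. The macrophage sum was 6647 with SEA/LPS, 6001 with LPS, 7290 with SEA and 7397 in MEDIA, and the neutrophil sum, most of it Mmp8, was 2439, 1913, 2723 and 3018 in the same order of groups. In bulk RNA, fewer cells of a type and less RNA per cell cannot be told apart.

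**Figure D1:**
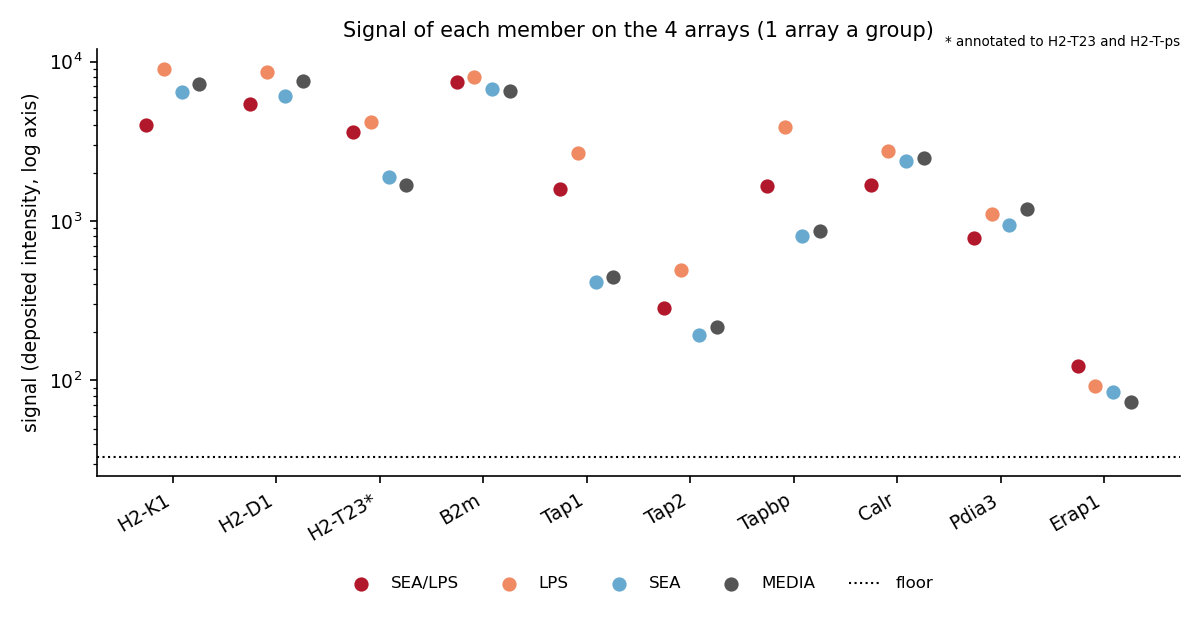
Signal of the 10 genes (deposited intensity, log axis) on the 4 arrays, SEA/LPS, LPS, SEA and MEDIA from left to right within each gene, 1 point an array, with the floor of 33.3 dotted. H2-T23 is read by a probe set shared with H2-T-ps. The LPS point is the highest of the 4 for every gene but Pdia3 and Erap1.

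With SEA added to LPS, the class I genes had lower signal than with LPS alone in all but Erap1, although B2m turned to 0.13 and the H2-T23 probe set to 0.04 on the log2 scale when the arrays were scaled to the hybridisation controls. Of the 9 genes with a probe set of their own, 2 were lower at 2-fold or more, H2-K1 and Tapbp, and 0 were higher, where 3.47% of the 9473 measured genes were lower and 1.39% higher. The median log2 difference of the 9 genes was -0.70 (range -1.21 to 0.43), beside a median of -0.01 over all measured genes. Tapbp stood 160th and H2-K1 182nd from the lowest of the measured genes. This was the comparison in which the 9 genes lay farthest from the all-gene median in the negative direction, and their median minus that of all genes lay between -0.71 and -0.57 under the 9 processing settings tried. The setting without cross-hybridising probe sets gave the -0.71 and read 8 of the 9 genes, as H2-K1 has no other probe set of its own. Scaling to the hybridisation controls moved the all-gene median by 0.11, and no member then reached 2-fold lower.

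The LPS array gave the pathway its highest signals. Tap1, Tap2 and Tapbp were higher with LPS than in MEDIA at 2-fold or more, and no member was lower, where 6.06% of measured genes were higher and 8.43% lower. The median of the 9 genes was 0.31 (range -0.10 to 2.59), beside -0.06 over all measured genes. Scaling to the hybridisation controls moved the all-gene median by -0.50, and then H2-K1 (-0.24), H2-D1 (-0.36), B2m (-0.25), Calr (-0.41) and Erap1 (-0.21) were below 0, while Tap1, Tap2 and Tapbp stayed above it.

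SEA alone left all 9 genes within 2-fold of MEDIA, where 0.644% of all genes were higher and 0.633% lower. Of the 9 genes, 7 were below 0, as were 45.5% of all measured genes. The median of the 9 was -0.11 (range -0.34 to 0.22), beside 0 over all genes. With SEA/LPS over MEDIA, Tap1 was the single member called higher and no member was lower, where 4.54% of measured genes were higher and 7.05% lower. The median there was 0.20 (range -0.85 to 1.84), beside -0.12 over all genes. Taking SEA over MEDIA away from SEA/LPS over LPS, both on the log2 scale, left a value below 0 for 8 of the 9 genes and for 54.4% of all measured genes. The median of these values was -0.62 for the 9 genes, beside -0.06 over all genes. The comparisons share arrays and are not independent of each other.

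**Figure D2:**
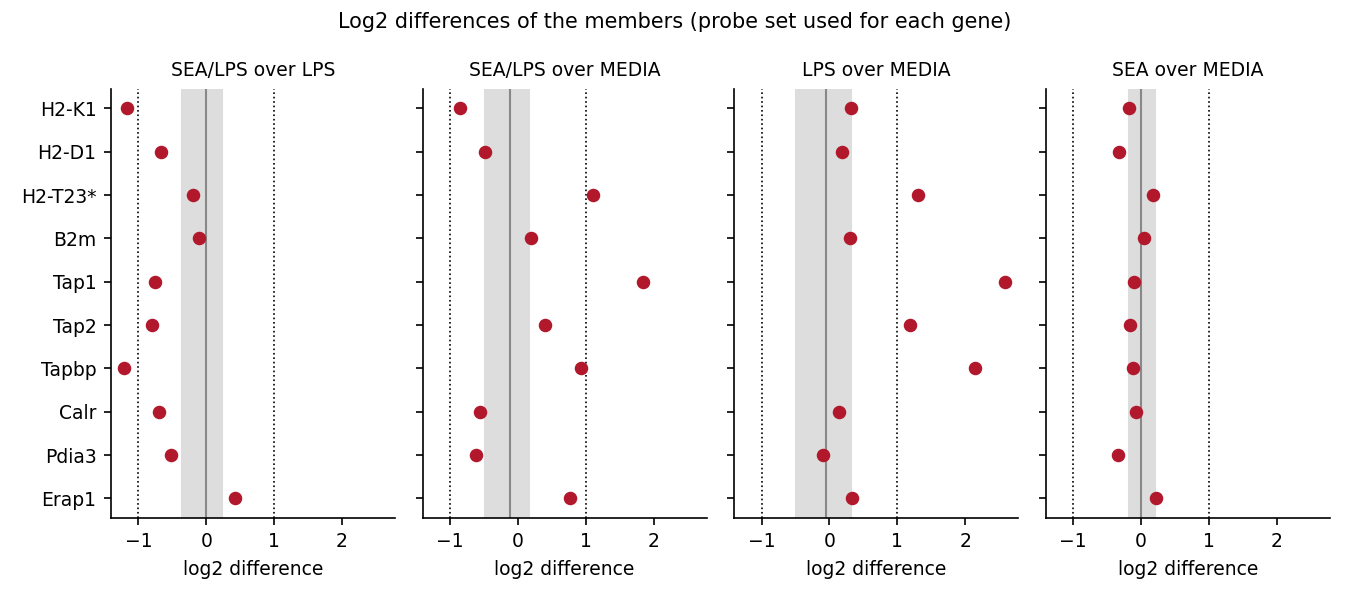
Log2 difference of each gene in the 4 comparisons (horizontal axes), genes from top to bottom, 1 point a gene from the probe set used for it. The grey band runs between the quartiles of all measured genes around their median, dotted lines mark 2-fold, and the asterisk marks the probe set shared by H2-T23 and H2-T-ps. In SEA/LPS over LPS, 7 genes with a probe set of their own lie left of the band.

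H2-K1 encodes a classical heavy chain that presents peptides to CD8+ T cells. The probe set used for it (1425336_x_at) gave a signal of 4018 with SEA/LPS, 9023 with LPS, 6401 with SEA and 7262 in MEDIA. It was highest with LPS and lowest with SEA/LPS, below both cultures without LPS. It was 2.25-fold lower on the SEA/LPS array than on the LPS array (log2 -1.17). SEA/LPS over MEDIA was -0.85 on the log2 scale, while LPS over MEDIA was 0.31 and SEA over MEDIA -0.18. A second H2-K1 probe set (1427746_x_at) had the widest spread, at 892 with SEA/LPS, 4491 with LPS, 2828 with SEA and 2148 in MEDIA. It was 5.03-fold lower on the SEA/LPS array than on the LPS array. Another (1450534_x_at) read 315 with SEA/LPS, 816 with LPS, 458 with SEA and 450 in MEDIA, a 2.59-fold lower signal with SEA/LPS than with LPS. The fourth (1451931_x_at) read 3466 with SEA/LPS, 6014 with LPS, 4052 with SEA and 4159 in MEDIA, and its log2 difference of -0.79 stayed short of 2-fold. All 4 had their highest signal with LPS and their lowest with SEA/LPS, and all 4 are of the class marked as cross-hybridising.

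H2-D1 encodes the other classical heavy chain represented here. Its probe set (1425545_x_at) read 5420 with SEA/LPS, 8648 with LPS, 6078 with SEA and 7593 in MEDIA. As with H2-K1, LPS was highest and SEA/LPS lowest, with a log2 difference of -0.67 between them that did not reach 2-fold. The probe set 1451784_x_at gave -0.68, from 4680 with SEA/LPS and 7524 with LPS, and 5237 with SEA and 5712 in MEDIA. The probe set 1451683_x_at gave -0.95, from 1204 with SEA/LPS and 2327 with LPS, and 1489 with SEA and 1032 in MEDIA. For this probe set LPS over MEDIA was 1.17, whereas the probe set used gave 0.19, so the size of the LPS difference depended on the probe set. The probe set 1426324_at, outside the cross-hybridising class, read 309 with SEA/LPS, 679 with LPS, 380 with SEA and 470 in MEDIA, 2.20-fold lower on the SEA/LPS array than on the LPS array. A dimmer one (1452544_x_at) read 71.6 with SEA/LPS, 76.5 with LPS, 70.2 with SEA and 118.5 in MEDIA and had its highest signal in MEDIA, unlike the 4 others. Near the floor, 1450170_x_at was under the floor with SEA/LPS and read 88.8 with LPS, 46.4 with SEA and 37.7 in MEDIA, at least 2.67-fold lower with SEA/LPS than on the LPS array. The probe sets 1425614_x_at and 1427651_x_at had their highest signals with LPS, 48.3 and 36.4, and 1451934_at and 1422348_at, the last annotated to several heavy chains, were under the floor on all 4.

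A probe set annotated to both H2-K1 and H2-D1 (1424948_x_at) read 391 with SEA/LPS, 1830 with LPS, 812 with SEA and 620 in MEDIA. It was 4.68-fold lower on the SEA/LPS array than on the LPS array and 1.56 higher on the log2 scale with LPS than in MEDIA. One annotated to H2-Q5 and H2-K1 (1451593_at) read 90.6 with SEA/LPS, 140.3 with LPS, 113.6 with SEA and 91.5 in MEDIA, a log2 difference of -0.63 between SEA/LPS and LPS. Both again had their highest signal with LPS.

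H2-T23 encodes the nonclassical heavy chain Qa-1, which is read by CD94/NKG2 receptors of NK cells. It was measured only through probe sets that the annotation shares with H2-T-ps, so the signal may come from either gene. The brighter of them (1449556_at) read 3626 with SEA/LPS, 4154 with LPS, 1897 with SEA and 1679 in MEDIA. Both arrays with LPS were above both without it, by 2.16-fold for SEA/LPS over MEDIA and 2.47-fold for LPS over MEDIA, whereas SEA/LPS over LPS was -0.20 on the log2 scale. Scaled to the hybridisation controls, both differences over MEDIA were short of 2-fold, at 0.80 for SEA/LPS and 0.76 for LPS on the log2 scale, and SEA/LPS over MEDIA was also short of it under quantile normalization (0.92). The dimmer one (1419658_at) lay between 44.0 and 57.2 on the 4 arrays and showed no such step. B2m, the light chain of all these molecules, read 7436 with SEA/LPS, 7999 with LPS, 6683 with SEA and 6490 in MEDIA. Its log2 difference was -0.11 for SEA/LPS over LPS and 0.30 for LPS over MEDIA. A second B2m probe set (1449289_a_at) read 4690 with SEA/LPS, 4535 with LPS, 3714 with SEA and 3000 in MEDIA, with 0.05 for SEA/LPS over LPS. Neither B2m nor the H2-T23 probe set came near a 2-fold lower signal with SEA/LPS than with LPS.

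Tap1 and Tap2 are the subunits of the peptide transporter. Tap1 (1416016_at) read 1584 with SEA/LPS, 2670 with LPS, 415 with SEA and 444 in MEDIA. It was 6.02-fold higher with LPS than in MEDIA and 3.57-fold higher with SEA/LPS than in MEDIA, with a log2 difference of -0.75 between SEA/LPS and LPS. A dim Tap1 probe set (1448177_at) was above the floor with LPS only, at a signal of 78.5, and was at least 2.36-fold lower on each of the other arrays. The other 2 Tap1 probe sets were under the floor on all arrays, and with all its probe sets averaged Tap1 was 0.96 in LPS over MEDIA and 0.46 in SEA/LPS over MEDIA, short of 2-fold. Tap2 (1453913_a_at) read 285 with SEA/LPS, 493 with LPS, 192 with SEA and 216 in MEDIA, 2.29-fold higher with LPS than in MEDIA. Its SEA/LPS value lay between LPS and MEDIA, at -0.79 against LPS and 0.40 against MEDIA on the log2 scale. Its difference with LPS was 0.64, short of 2-fold, when scaled to the hybridisation controls.

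Tapbp had the lowest SEA/LPS over LPS difference of the 9 genes. Its probe set (1421812_at) read 1665 with SEA/LPS, 3862 with LPS, 805 with SEA and 871 in MEDIA, 4.43-fold higher with LPS than in MEDIA and 2.32-fold lower on the SEA/LPS array than on the LPS array. The second Tapbp probe set (1450378_at) read 189 with SEA/LPS, 1677 with LPS, 325 with SEA and 381 in MEDIA. It gave almost the same LPS over MEDIA difference, 2.14 beside 2.15 on the log2 scale, but was 8.86-fold lower on the SEA/LPS array than on the LPS array. The probe sets therefore disagreed on SEA/LPS over MEDIA, which was 0.93 by the first and -1.01 by the second, and their mean gave -0.04. Neither is of the cross-hybridising class.

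The chaperones of the loading complex had no higher signal with LPS at 2-fold. Calr (1417606_a_at) read 1692 with SEA/LPS, 2754 with LPS, 2386 with SEA and 2501 in MEDIA, lowest with SEA/LPS, with -0.70 against LPS and -0.56 against MEDIA. Its 2 cross-hybridising probe sets were also lowest with SEA/LPS, at 897 against 1847 with LPS, 1539 with SEA and 2060 in MEDIA for 1433806_x_at and at 1031 against 1738 with LPS, 1915 with SEA and 2401 in MEDIA for 1456170_x_at. These gave log2 differences of -1.20 and -1.22 for SEA/LPS over MEDIA, past 2-fold, where the probe set used did not reach it. Pdia3 (1423423_at), a disulfide isomerase, read 780 with SEA/LPS, 1113 with LPS, 944 with SEA and 1193 in MEDIA, with -0.51 for SEA/LPS over LPS. Erap1 (1416942_at) read 124.1 with SEA/LPS, 92.1 with LPS, 84.8 with SEA and 72.9 in MEDIA. It was the 1 member with its highest signal on the SEA/LPS array, 0.43 above LPS on the log2 scale.

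Class I genes are close copies of each other, so their probe sets were compared by the array's own marking. Probe sets whose ID ends in _s_at or _x_at are designated as able to bind transcripts of related genes. They made up 15 of the 32 probe sets, 12 of them for H2-K1 or H2-D1, and H2-K1 had none of its own outside that class. Among the 24 probe sets above the floor on all arrays, 22 were lower with SEA/LPS than with LPS and 8 of them at 2-fold or more, none higher at 2-fold. With probe sets above the floor on some arrays added, 10 of 28 were lower at 2-fold, where 4.27% of all measured probe sets were lower and 1.52% higher. In LPS over MEDIA, 10 of the 28 were higher and 0 lower at 2-fold, where 6.33% of all measured probe sets were higher and 8.15% lower. Both counts of 10 include the Tap1 probe set 1448177_at, which was above the floor with LPS only. Its directions in the 2 comparisons were therefore set by that filter, and the counts among the 24 leave it out. Scaled to the hybridisation controls, 13 of the 24 were below 0 in LPS over MEDIA. At 2-fold, 2 of them were then lower and 4 higher, against 0 and 8 as deposited. In SEA/LPS over LPS, 4 of the 24 were lower at 2-fold under this scaling. Of 9534 measured genes, it called 2431 lower and 284 higher in LPS over MEDIA. In SEA/LPS over LPS it called 134 genes lower and 299 higher.

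The 11 cross-hybridising probe sets above the floor on all arrays had a median SEA/LPS over LPS difference of -0.95, with 5 of them lower at 2-fold. The other 13 had a median of -0.63, with 3 lower at 2-fold, so both classes had negative medians. Over all probe sets of the array above the floor on all arrays, the cross-hybridising class had a median of 0.07 (1750 probe sets, 2.69% of them lower at 2-fold) and the other class -0.02 (9592 probe sets, 4.07% lower). The classes differed more in SEA/LPS over MEDIA, at -0.67 for the cross-hybridising members and 0.20 for the others, and they hold different genes: the cross-hybridising ones are heavy chains and Calr, and the others include Tap1, Tap2 and Tapbp. Within the heavy chains, the 9 cross-hybridising probe sets had a median of -0.95 for SEA/LPS over LPS, and the other 2 stood at -0.63 and -1.14. The second of these is 1426324_at, annotated to H2-D1 alone. The cross-hybridising probe sets do not separate H2-K1 from H2-D1 or from further class I copies.

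**Figure D3:**
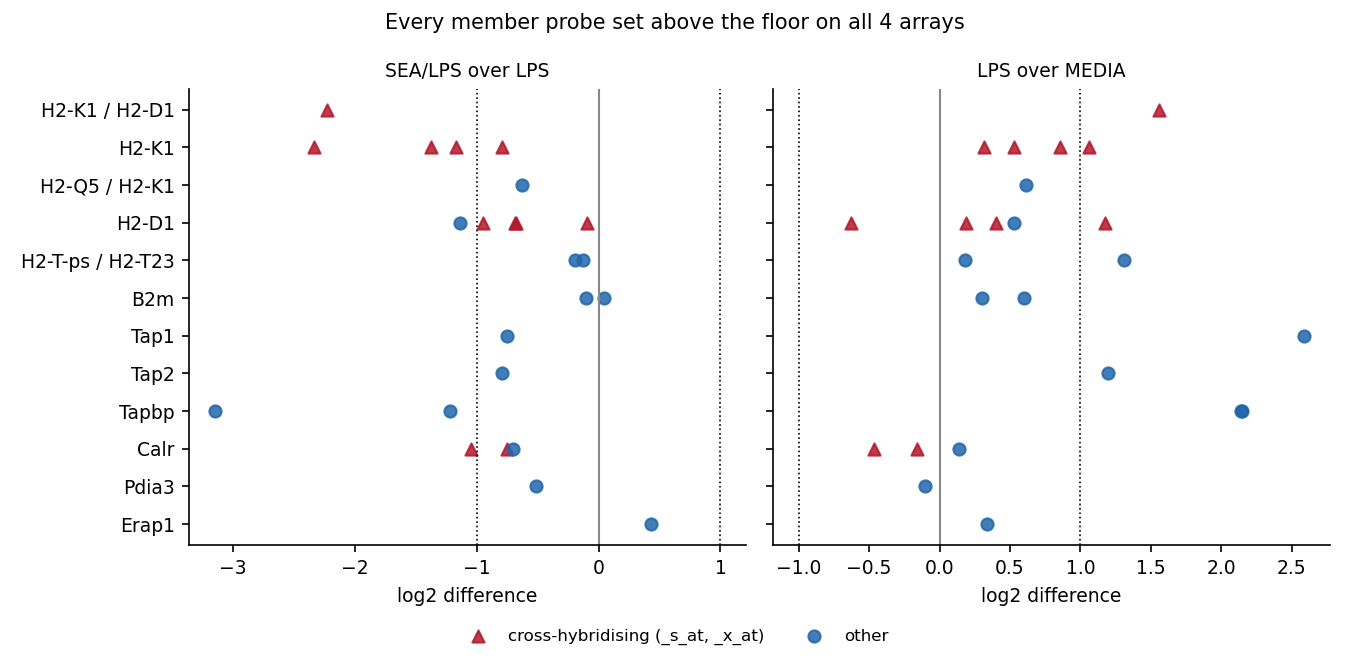
Log2 difference (horizontal axes) of the 24 probe sets above the floor on all arrays, for SEA/LPS against LPS (left) and LPS against MEDIA (right), by the gene symbols they are annotated to. Triangles are cross-hybridising probe sets, circles are the others, and dotted lines mark 2-fold. The 8 probe sets left of the 2-fold line in the left panel belong to H2-K1, H2-D1, Tapbp and Calr, with 1 shared by H2-K1 and H2-D1.

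The genes that feed or surround the loading complex did not all follow it. Of the immunoproteasome list, which cuts the peptides, 4 of 5 genes were measured, and 1 was lower at 2-fold in SEA/LPS over LPS. That gene was Psmb8, an inducible catalytic subunit, at 732 with SEA/LPS, 2895 with LPS, 1163 with SEA and 1476 in MEDIA, a log2 difference of -1.98. Psmb10, another inducible subunit, was 1.69 higher on the log2 scale with LPS than in MEDIA, and Psmb9 read 582.5 with SEA/LPS, 521 with LPS, 242 with SEA and 296.5 in MEDIA. Tap1, Psmb8, Psmb9 and Tap2 are neighbours on chromosome 17 in the order Psmb9, Tap1, Psmb8, Tap2 among protein-coding genes, and their SEA/LPS over LPS differences were 0.16, -0.75, -1.98 and -0.79 in that order. The list medians were -0.21 in SEA/LPS over LPS and 0.89 in LPS over MEDIA. The 3 constitutive catalytic subunits had medians of 0.24 and -0.20 in the same comparisons, with none called.

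Other class I and class I-like heavy chains were measured in 7 of 19 cases, with medians of -0.11 in SEA/LPS over LPS and -0.46 in LPS over MEDIA and none called. H2-M3, which presents formylated peptides, was 0.42 and 0.40 in these comparisons. Other endoplasmic reticulum chaperones and folding enzymes (18 of 20 measured) had a median of -0.07 in SEA/LPS over LPS with none called, and of -0.22 in LPS over MEDIA, where Pdia4 was lower (-1.56). Hspa5 (BiP) read 4093 with SEA/LPS, 5310 with LPS, 2623 with SEA and 2658 in MEDIA, so LPS over MEDIA was just under 2-fold. Cross-presentation and vesicle traffic genes (8 of 9 measured) had medians of 0.15 and -0.10, and the tapasin relative Tapbpl was the 1 called, at 1.69 in LPS over MEDIA and 0.05 in SEA/LPS over LPS.

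Regulators of class I transcription (19 of 22 measured) had a median of -0.10 in SEA/LPS over LPS, with 3 lower. These were Stat2, which carries the type I interferon signal (-2.91), the interferon gene Ifnb1 (-1.33) and the transcription factor Irf8, which at 955 with SEA/LPS and 1911 with LPS just reached 2-fold and was short of it when the arrays shared a 75th percentile (-0.94) or were set to the hybridisation controls (-0.76). The 3 were also higher with LPS than in MEDIA, at 3.26, 1.79 and 1.96, together with Rfx5 (1.13), a component of the class I and class II enhanceosome, and the list median there was 0.30. The interferon-stimulated genes gave a different picture from H2-K1 and Tapbp. Of 28 measured of 32, 27 were higher with LPS than in MEDIA, with a median of 3.53, and 27 were higher with SEA/LPS than in MEDIA, with a median of 3.70. In SEA/LPS over LPS their median was -0.09, with 20 below 0, none lower at 2-fold and Gbp3, an interferon-inducible GTPase, higher (1.25). Over MEDIA, SEA/LPS also gave calls in the other lists, with Psmb10 (1.12) and Tapbpl (1.74) higher and Psmb8 (-1.01), Pdia4 (-1.43), Sdf2l1 (-1.21) and Ciita (-1.07) lower. In this comparison the medians of the other lists were -0.40 for the heavy chains, 0.79 for the immunoproteasome, -0.04 for the constitutive subunits, -0.29 for the chaperones, 0.05 for cross-presentation and 0.36 for the regulators. In SEA over MEDIA all 7 of these lists lay between -0.34 and 0.13, with Oasl1 higher and Ciita, the class II transactivator, lower (-1.08) as the genes called.

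**Figure D4:**
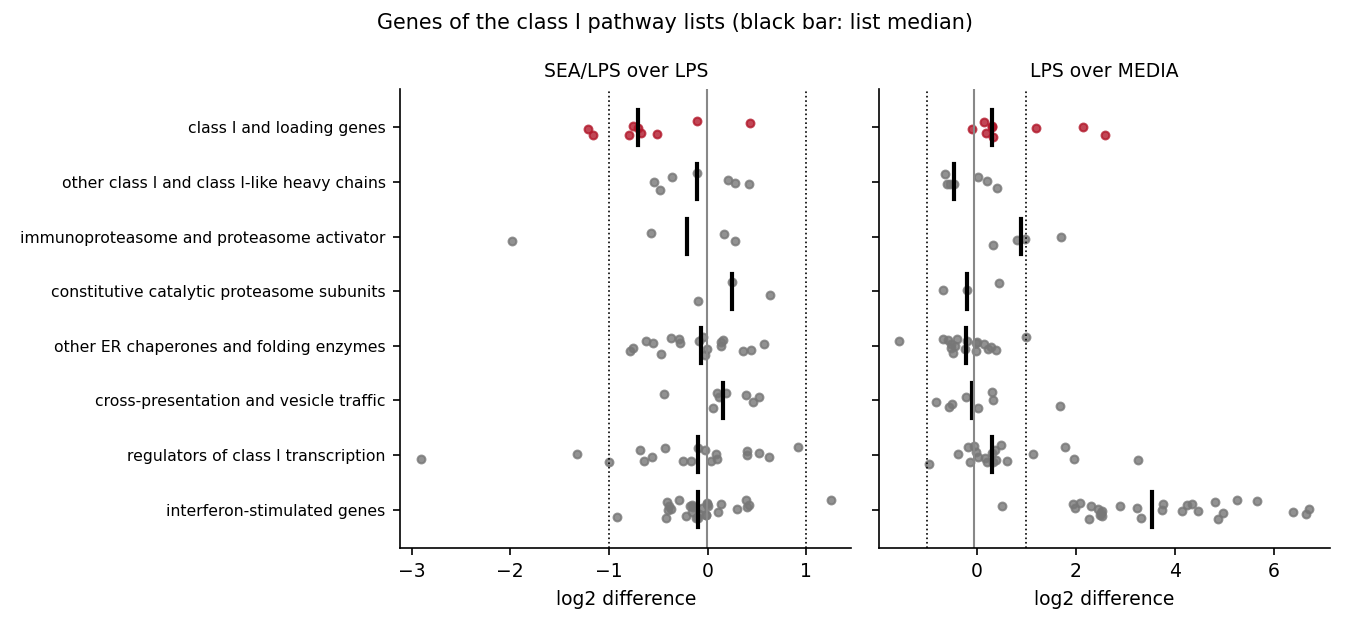
Log2 difference (horizontal axes) of every measured gene of the 8 lists in SEA/LPS over LPS (left) and LPS over MEDIA (right), 1 point a gene, with the list median as a black bar, the all-gene median as a grey line and 2-fold dotted. The class I and loading genes (top, median -0.70) lie lowest of the 8 medians on the left, and the interferon-stimulated genes (bottom, median 3.53) lie highest on the right.

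Il10, whose loss all samples share, was read at 93.0 with SEA/LPS, 303.6 with LPS, 52.1 with SEA and 37.9 in MEDIA. As no sample has intact Il10, and the place of its probe set relative to the disrupted part is not known here, these values check no label.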

How the data were processed

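Total RNA of 4 samples was measured on Affymetrix arrays with 22690 probe sets. The deposited values are linear 1-colour intensity values that the authors had scaled, judged from the values, to a common trimmed mean; the software behind them was not given in the labels. Such scaling hides a difference in total RNA and sets how many genes read as higher or lower.

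Probe sets were named through the platform annotation. Each gene was read by its brightest probe set with a single symbol (highest mean floored log2). Genes that exceeded the floor of 33.3 on some array counted as measured, 9473 in all. Differences from a floored array are bounds. Differences were computed with Python 3.11.15, numpy 2.4.6 and pandas 2.3.3, and figures drawn with matplotlib 3.10.9. The calling code was checked on simulated arrays without noise, in which changes had been planted in bright genes. That check does not show how noise acts on single arrays. No depth exists for arrays; their number, 1 a group, limits the precision.

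The members and the 8 pathway and 9 marker lists were chosen with earlier results of these data known. The text names, besides all member probe sets, Il10, up to 4 genes of each list with the largest difference in each comparison and the 5 genes nearest to H2-K1, H2-T23, Tap1 and Tapbp in pattern. H2-M3, Hspa5, Psmb9, Itgax, Cd3e and other genes outside that rule were named after their values were seen. Alternatives were other scalings, floors, a pseudocount, a 1.5-fold threshold, the mean of a gene's probe sets and leaving out cross-hybridising probe sets.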

Additional observations from a re-analysis of the deposited data

Results flagged for a closer look

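Among the 24 probe sets above the floor on all arrays, the SEA difference had opposite signs with and without LPS in 8, below 0 for SEA/LPS over LPS and above 0 for SEA over MEDIA. Each sign rests on 1 array a group, so the difference between the SEA effects was not tested. Over all measured genes, 50.6% were below 0 in SEA/LPS over LPS and 45.5% in SEA over MEDIA. Opposite signs were not counted over all probe sets, so 8 of 24 cannot be called more than the general share. Among these 8, the gaps past 2-fold were in heavy chain probe sets of the cross-hybridising class. Gaps past 2-fold also stood in both Tapbp probe sets, which are outside that class and were below 0 with and without LPS. These gaps were -2.92 for 1450378_at and -1.10 for 1421812_at. The H2-K1 probe set 1427746_x_at was -2.33 on the log2 scale with LPS and 0.40 without it, a gap of -2.73. The probe set shared by H2-K1 and H2-D1 (1424948_x_at) was -2.23 with LPS and 0.39 without it, a gap of -2.62. The H2-D1 probe set 1451683_x_at was -0.95 with LPS and 0.53 without it, a gap of -1.48. The H2-K1 probe set 1450534_x_at was -1.37 with LPS and 0.03 without it, a gap of -1.40, but scaled to the hybridisation controls its value without LPS was -0.06, so that both signs were then negative.

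The other 4 gaps of the 8 probe sets with opposite signs were smaller. They were -0.94 for 1451593_at (H2-Q5 and H2-K1), -0.51 for 1419658_at and -0.37 for 1449556_at (both H2-T23 and H2-T-ps) and -0.15 for the B2m probe set 1452428_a_at. Opposite signs stood in 8 of the 24 probe sets at a common 75th percentile, in 7 under quantile normalization and in 6 when scaled to the hybridisation controls. The dim H2-D1 probe sets 1450170_x_at and 1425614_x_at, under the floor on some arrays, were also below 0 with LPS and above 0 without it.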

How the results depend on the processing

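No paired analysis was possible because each group had 1 sample, and leaving out a sample was not possible either. As a gauge, the log2 difference of the probe set used for a gene was taken away from that of each other probe set of the gene. Over all genes with several probe sets above the floor on all arrays, these discrepancies had an SD of 0.59 in SEA/LPS over LPS. The SD was 0.54 in SEA/LPS over MEDIA, 0.61 in LPS over MEDIA and 0.44 in SEA over MEDIA. Over the 9 settings the median of the 9 class I genes ranged from -0.73 to -0.46 in SEA/LPS over LPS, from -0.12 to 0.40 in SEA/LPS over MEDIA, from -0.24 to 0.45 in LPS over MEDIA and from -0.20 to -0.02 in SEA over MEDIA. The -0.73 came without cross-hybridising probe sets, a setting that read 8 genes and could not read H2-K1. In SEA/LPS over LPS 2 of those 8 were lower at 2-fold, with H2-D1 then at -1.14. The count of members lower in SEA/LPS over LPS was 2 as deposited, 0 when scaled to the hybridisation controls and 6 at 1.5-fold, where 13.4% of all measured genes were lower at 1.5-fold. In SEA/LPS over MEDIA the count of members higher was 1 as deposited, 2 at a common 75th percentile, 0 with the mean of all probe sets and 3 at 1.5-fold, and the count lower was 0 as deposited, 1 under quantile normalization, 1 when scaled to the hybridisation controls and 2 at 1.5-fold. Of all measured genes, 9.89% were higher and 20.2% lower there at 1.5-fold, so the 2 members lower are near the share over all genes. Calr, H2-K1 and H2-D1 were also below 0 in LPS over MEDIA under quantile normalization. Over all genes, the share of calls that were higher moved with the scaling. In SEA/LPS over LPS it was 28.6% as deposited, 39.5% at a common 75th percentile, 43.3% under quantile normalization and 69.1% when scaled to the hybridisation controls. In SEA/LPS over MEDIA it was 39.2%, 58.6%, 52.0% and 16.5% in the same order of settings, and in LPS over MEDIA 41.8%, 55.4%, 47.4% and 10.5%. The counts of genes called ranged from 37 to 493 higher and 116 to 955 lower in SEA/LPS over LPS, from 288 to 732 and 272 to 1462 in SEA/LPS over MEDIA, from 284 to 1084 and 368 to 2431 in LPS over MEDIA, and from 13 to 439 and 7 to 367 in SEA over MEDIA. In the lists around the members, 82 values moved by more than the gauge. Calls lost at a common 75th percentile were those of Irf8 in SEA/LPS over LPS (-0.94) and of Psmb8 (-0.81) and Ciita (-0.87) in SEA/LPS over MEDIA, the last also under quantile normalization (-0.83). Calls lost when scaled to the hybridisation controls were those of Irf8 (-0.76) in SEA/LPS over LPS, Psmb10 (0.81) in SEA/LPS over MEDIA and Rfx5 (0.58) in LPS over MEDIA. That scaling called 6 of 19 chaperones lower in LPS over MEDIA, against 1 of 18 as deposited. It also called 3 of 7 heavy chains and 3 of 8 cross-presentation genes lower, against 0. Over all genes it called 2431 of 9534 lower there, against 799 of 9473 as deposited, so the lists moved together with all genes. With the floor at the 60th percentile, Ifnb1 was short of 2-fold in SEA/LPS over LPS (-0.77) and LPS over MEDIA (0.77), Pdia4 (-0.47) in LPS and SEA/LPS over MEDIA and Ciita (-0.33) in SEA and SEA/LPS over MEDIA. Pdia4 and Ciita were also short of it with the pseudocount and with the mean of all probe sets. With the pseudocount, 1 regulator was lower in SEA/LPS over LPS, against 3 as deposited, and 3 were higher in LPS over MEDIA, against 4. No immunoproteasome gene was then lower in SEA/LPS over MEDIA, against 1 as deposited (Psmb8). Of the genes named, Dhx58 changed sign in SEA/LPS over MEDIA, to -0.56 with the floor at the 20th percentile. The probe set used for it as deposited read 417.0 with SEA/LPS and 7.9 in MEDIA, a difference that a lower floor can only widen. The value of -0.56 therefore comes from another Dhx58 probe set, which was the brightest at that floor.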

Other observations

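The genes nearest in pattern were taken by Euclidean distance over the 3 log2 differences from MEDIA, among 7142 genes above the floor on all 4 arrays. Nearest to H2-K1, low with SEA/LPS, were Bcl2 (distance 0.08), an inhibitor of apoptosis, Trabd (0.09), Egln2 (0.13), Tmem38b (0.13) and Vcp (0.13), the ATPase that extracts proteins from the endoplasmic reticulum. Vcp read 1082 with SEA/LPS, 2165 with LPS, 1602 with SEA and 1883 in MEDIA. Nearest to the H2-T23 probe set, high on both arrays with LPS, were Fbxw11 (0.10), Jag1 (0.11), Neto1 (0.14), Dennd5a (0.17) and Tiparp (0.18).

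Nearest to Tap1 were Epha1 (0.14), Acpp (0.19), Clic4 (0.23), and the interferon-stimulated genes Oas1a (0.25) and Pml (0.26). Oas1a read 1790 with SEA/LPS, 2393 with LPS, 399 with SEA and 427 in MEDIA. Nearest to Tapbp were Tnfaip3 (0.20), which restrains NF-kappaB signalling, Itgav (0.21), Irf8 (0.30), Cnn3 (0.37) and Niban1 (0.39). Irf8 read 955 with SEA/LPS, 1911 with LPS, 531 with SEA and 490 in MEDIA. With 3 differences and this many genes, most patterns have near neighbours.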
